A study of Mus musculus with 6 samples.

Results

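This account follows 31 lysosome genes, measured in macrophages with and without Tet2 on 6 expression arrays. The genes fall into 9 subunits and accessory proteins of the vacuolar proton pump (the V-ATPase), 14 lysosomal hydrolases and their activators, 6 lysosomal membrane proteins, and 2 transcription factors of lysosome genes. They were chosen by name, with cathepsins left out and with earlier results of these data known. Each of the 31 was found as 1 of the 25206 probe sets of the deposited table. A probe set is the group of array probes summarised as 1 value for a gene.

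Lysosomes are the acidic compartments in which cells break down protein, glycan, lipid and nucleic acid. The V-ATPase pumps protons into them, which gives the hydrolases the acid they need, and heavily glycosylated membrane proteins line the inner face. Transcription factors of the MiT family, among them TFEB and TFE3, raise many of these genes together through E-box elements in their promoters. Macrophages, which digest what they engulf, are among the cells richest in lysosomes.

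The cells were taken from the peritoneal cavity of C57BL/6J mice, either Tet2-/- or wild-type littermates, 4 days after 1 mL of aged 4% Brewer's thioglycollate was given intraperitoneally to recruit macrophages. They were plated in RPMI with serum and antibiotics, received no further treatment, and gave total RNA 10 h later. Tet2 encodes an enzyme that oxidises methylated cytosine in DNA, and the comparison asks which transcripts differ without it. There were 3 arrays per genotype, numbered replicates 4, 5 and 6. The labels call them biological replicates without saying that each came from its own animal. The p-values below therefore reflect the spread among these 6 samples, part of which may be technical. The labels name neither the animals' age and sex nor the deleted part of Tet2, and no sorting step.

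For 4 of the 6 samples, the genotype field of the labels gave the opposite genotype to the title. The title was used here, so "Tet2-/-" below means the libraries with that title. The level of Tet2 itself does not check the labels, since the deleted part is not named and the probe set may lie outside it; it ran from 3.74 to 4.35 in wild-type and from 3.67 to 4.05 in Tet2-/- arrays. The array of Tet2-/- replicate 6 stood apart from the others: its median log2 value of 2.93 was the highest (2.765 to 2.82 in the other 5), its interquartile range of 2.99 the narrowest (3.16 to 3.33), and its mean correlation with the other arrays the lowest (0.982 against 0.986 to 0.989). Class means of the lysosome genes and their counts of lower means are therefore given with and without it. So are the genes whose difference depends on it most. Of the 8 macrophage markers measured, Adgre1 lay between 7.79 and 8.90, Csf1r between 8.61 and 9.87 and Itgam between 8.95 and 10.29 over the 6 arrays, so transcripts of macrophages were well above the array medians in each library.

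None of the 31 genes passed the test between genotypes. By limma's moderated test with Benjamini-Hochberg adjustment over all probe sets, 0 of 31 had an adjusted p under 0.05, as had 0 of all 25206 (0%), and the adjusted p of each was 0.998. Mean levels were lower in Tet2-/- for 27 of the 31, or 87.1%, beside 50.0% of all probe sets. The median log2 difference of the 31 was -0.12, beside 0 for all probe sets and -0.0067 for their brighter part. At an unadjusted p under 0.05 there were 2 members, both lower and both V-ATPase subunits, or 6.45% beside 1.90% of all probe sets. That count of 2 lower members became 1 without wild-type replicate 4 or 5 or Tet2-/- replicate 5 or 6, and 0 without wild-type replicate 6; without Tet2-/- replicate 6, 1 other member, Glb1, was higher at that p (4.96% of all probe sets were). All 3 Tet2-/- arrays lay below all 3 wild-type arrays for 2 members, 6.45% beside 4.07%. In bulk RNA of this kind, fewer cells of a type and less RNA per cell cannot be told apart.

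**Figure D1:**
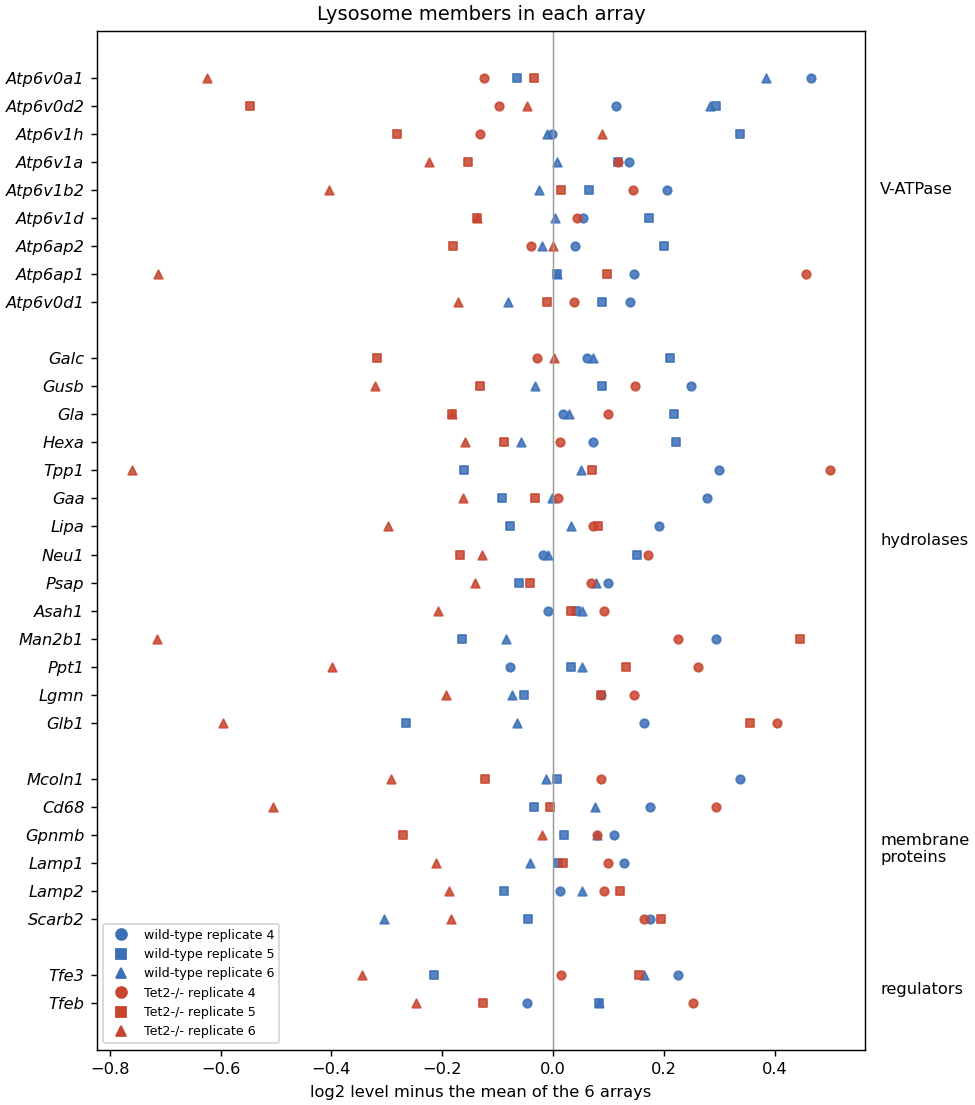
Log2 level of each of the 31 genes in each of the 6 arrays, drawn as the distance from that gene's mean over the 6 arrays and grouped by class. Blue marks are wild-type and red marks Tet2-/- arrays, with a shape per replicate. Red triangles (Tet2-/- replicate 6) lie furthest left in 22 of 31 rows, while red squares (replicate 5) lie furthest left in 6, among them Atp6v0d2 and Galc.

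The V-ATPase was the class with the lowest mean difference. All 9 of its members had a lower mean in Tet2-/- arrays (100% beside 50.0% of all probe sets). Their mean log2 difference was -0.23, with a median of -0.16 and a range from -0.52 to -0.097. Without Tet2-/- replicate 6, 8 of the 9 were lower (88.9% beside 55.2% of all probe sets), with a mean of -0.16. Relative to each gene's 6-array mean, the class stood at 0.14, 0.14 and 0.061 in wild-type replicates 4, 5 and 6 and at 0.045, -0.14 and -0.25 in Tet2-/- replicates 4, 5 and 6. Each Tet2-/- array was thus below each wild-type array, although replicate 4 only by a small margin.

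Atp6v0d2 encodes the d2 subunit of the membrane sector, an isoform of macrophages and osteoclasts. Its log2 levels were 10.43, 10.61 and 10.60 in wild-type replicates 4, 5 and 6 and 10.22, 9.77 and 10.27 in Tet2-/- replicates 4, 5 and 6. The groups did not overlap, and replicate 5 was the lowest. The log2 difference between genotypes was -0.46 (SE 0.164, 0.727-fold, 95% confidence interval -0.83 to -0.088). Its unadjusted limma p of 0.0209 did not pass adjustment (adjusted p = 0.998). Without Tet2-/- replicate 5 the difference was -0.30.

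The widely expressed d1 isoform, from Atp6v0d1, did not separate in the same way. It stood at 8.84, 8.79 and 8.62 in wild-type and at 8.74, 8.69 and 8.53 in Tet2-/- replicates 4, 5 and 6, and the groups overlapped. Its difference was -0.097 (95% confidence interval -0.40 to 0.21). Whether the 2 isoforms' differences differ from each other was not tested.

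Atp6v0a1, the a1 subunit of the membrane sector that holds the proton path, had the lowest difference of all 31. It was at 8.64, 8.11 and 8.56 in wild-type and at 8.05, 8.14 and 7.55 in Tet2-/- replicates 4, 5 and 6. Wild-type replicate 5 lay just below Tet2-/- replicate 5, so the groups overlapped. The log2 difference of -0.52 (SE 0.204, 95% confidence interval -0.98 to -0.062) had an unadjusted p of 0.0304 and an adjusted p of 0.998 by limma. It was -0.34 without Tet2-/- replicate 6.

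The other members of the pump include 4 subunits of the cytosolic sector, which burns ATP. Atp6v1a, the catalytic A subunit, was at 9.79 ± 0.0700 in wild-type and 9.62 ± 0.180 in Tet2-/- cells (SD, n = 3 each), which is -0.17 apart. Atp6v1b2, the B2 subunit, differed by -0.16, the stalk subunit Atp6v1d by -0.15, and Atp6v1h, which regulates coupling of the 2 sectors, by -0.22. Groups overlapped for each of these 4, and their 95% confidence intervals reached from -0.58 at the lowest to 0.22 at the highest. Atp6v1b2 was near 0 without Tet2-/- replicate 6, at -0.0017, and Atp6v1h was at -0.10 without wild-type replicate 5.

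The accessory proteins differed from each other in the arrays that were low. Atp6ap1, which helps assemble the pump, was at 9.30, 9.16 and 9.16 in wild-type and at 9.61, 9.25 and 8.44 in Tet2-/- replicates 4, 5 and 6. Replicate 6 was the lowest of the 6 arrays while replicate 4 was the highest. Its difference was therefore -0.11 with all arrays and 0.22 without replicate 6. Atp6ap2, also known as the prorenin receptor, was at 8.42 ± 0.114 and 8.28 ± 0.0945 (SD, n = 3 each), -0.15 apart.

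**Figure D2:**
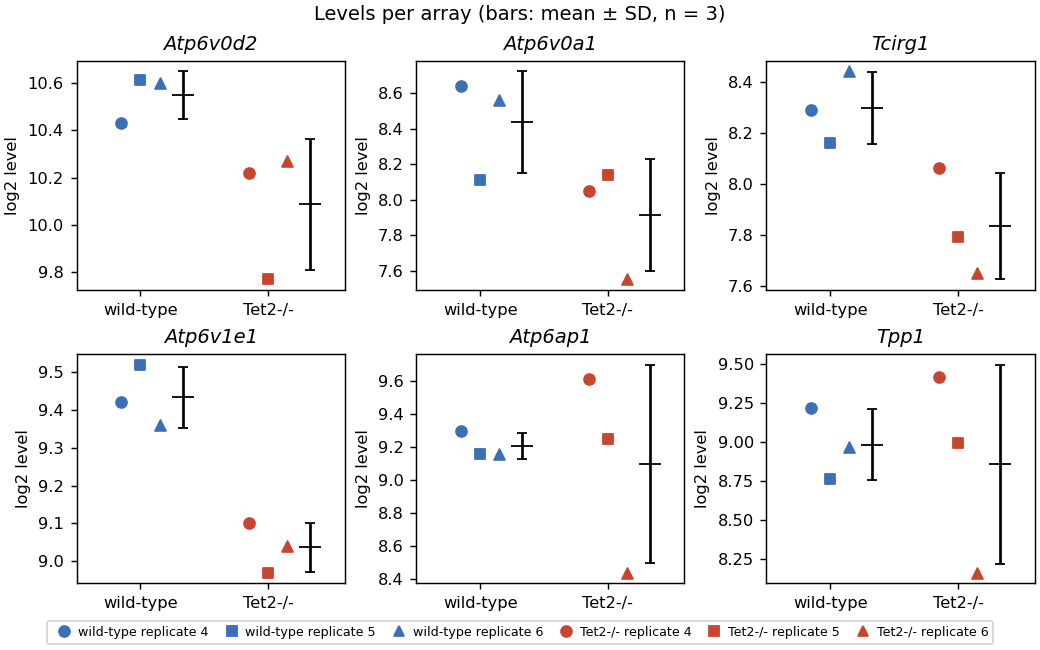
Log2 level per array of 4 V-ATPase subunit genes, of the pump's accessory protein gene Atp6ap1 and of the peptidase gene Tpp1, with group mean ± SD (n = 3) as bars. Axes are cut to each gene's range. Atp6v0d2, Tcirg1 and Atp6v1e1 do not overlap between genotypes, while in Atp6ap1 and Tpp1 only replicate 6 of the Tet2-/- arrays is low.

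The remaining pump genes, none of them among the 31, had mostly lower means as well, with and without Tet2-/- replicate 6. Of 20 listed subunits and assembly factors, 18 were measured, and 14 of them had a lower mean in Tet2-/- and 4 a higher one (77.8% lower beside 50.0% of all probe sets, median -0.23). The 4 with a higher mean were all dim, with group means from 1.45 to 2.60. None passed adjustment. At an unadjusted p under 0.05 there were 3, all lower (16.7% beside 1.90%), and the same 3 did not overlap between groups (16.7% beside 4.07%). Tcirg1, the a3 subunit of lysosomes and osteoclasts, was at 8.29, 8.16 and 8.44 in wild-type and at 8.06, 7.79 and 7.65 in Tet2-/- replicates 4, 5 and 6, a difference of -0.46 (95% confidence interval -0.81 to -0.12, adjusted p = 0.998 by limma). Atp6v1e1, a stalk subunit found in most cells, was at 9.42, 9.52 and 9.36 in wild-type and at 9.10, 8.97 and 9.04 in Tet2-/-, a difference of -0.40 with tight groups (SD 0.0808 and 0.0651, n = 3 each). Its relative Atp6v1e2 differed by -0.46, from a dim 3.68 to 3.23, and Atp6v1g3, near the bottom of the scale, by 0.34.

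Tet2-/- replicate 6 was not the low array for these genes. The 18 stood at 0.055, 0.10 and 0.12 in wild-type and at -0.078, -0.18 and -0.012 in Tet2-/- replicates 4, 5 and 6, so here replicate 6 was the Tet2-/- array nearest to wild-type. Without replicate 6 their mean difference was -0.22, against -0.18 with it, and 15 of the 18 had a lower mean (83.3% beside 55.2% of all probe sets). At an unadjusted p under 0.05, 8 of the 18 were then lower, beside 4.91% of all probe sets. The 9 members stood at -0.16 without it, with 1 of 9 at that p, Atp6v0d2 (-0.55, adjusted p = 0.360 by limma).

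Hydrolases had a smaller mean difference, and it rested on Tet2-/- replicate 6. Of the 14, 12 had a lower and 2 a higher mean in Tet2-/- (85.7% lower beside 50.0% of all probe sets). Their differences had a mean of -0.088, a median of -0.090 and a range from -0.23 to 0.11. By limma, 0 had an unadjusted p under 0.05. The class stood at 0.12, 0.0064 and 0.0029 in wild-type and at 0.16, 0.017 and -0.30 in Tet2-/- replicates 4, 5 and 6. Replicates 4 and 5 thus lay within or above the wild-type range, and replicate 6 far below it. Without replicate 6 the mean was 0.043, and 7 of the 14 were lower and 7 higher (50% lower beside 55.2% of all probe sets).

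Galc, which removes galactose from the myelin lipid galactosylceramide, was the one hydrolase without overlap. It was at 7.34, 7.49 and 7.35 in wild-type and at 7.25, 6.96 and 7.28 in Tet2-/- replicates 4, 5 and 6, a difference of -0.23 (95% confidence interval -0.55 to 0.089). As for Atp6v0d2, replicate 5 was the lowest, and without it the difference was -0.13.

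Tpp1, an exopeptidase that trims tripeptides, showed the opposite arrangement. It was at 9.22, 8.76 and 8.97 in wild-type and at 9.42, 8.99 and 8.16 in Tet2-/- replicates 4, 5 and 6, so the Tet2-/- group held both the highest and the lowest array. Man2b1, the lysosomal alpha-mannosidase, was at 8.78, 8.32 and 8.40 in wild-type and 8.71, 8.93 and 7.77 in Tet2-/-. Glb1, the beta-galactosidase also used as a stain for senescent cells, was at 7.34, 6.91 and 7.11 in wild-type and 7.58, 7.53 and 6.58 in Tet2-/-. In all 3 genes replicate 6 lay about 1 log2 unit below the mean of replicates 4 and 5: the gaps were -1.045 for Tpp1, -1.05 for Man2b1 and -0.975 for Glb1. Their differences changed from -0.13, -0.030 and 0.11 with all arrays to 0.22, 0.32 and 0.43 without replicate 6. Of the 3, only Glb1 then had an unadjusted p under 0.05, higher in Tet2-/- (adjusted p = 0.433 by limma).

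Of the other sugar-cleaving enzymes, all 5 had a lower mean in Tet2-/- and overlapped between genotypes. Gusb, the beta-glucuronidase, differed by -0.20, the alpha-galactosidase Gla by -0.18, and Hexa, the alpha chain of beta-hexosaminidase, by -0.16. For the acid alpha-glucosidase Gaa, which digests glycogen, and the sialidase Neu1 the differences were -0.12 and -0.083. Their group SDs lay between 0.0854 and 0.236. Single arrays moved these values by much of their size: Gusb was at -0.093 without Tet2-/- replicate 6, Hexa at -0.085 and Gla at -0.11 without wild-type replicate 5, Gaa at -0.015 without wild-type replicate 4, and Neu1 at -0.020 without Tet2-/- replicate 5.

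Lipid and protein processing enzymes were close to equal in mean level. Lipa, which frees cholesterol from its esters, was at 10.92 ± 0.136 in wild-type and 10.82 ± 0.217 in Tet2-/- (SD, n = 3 each), -0.097 apart. The acid ceramidase Asah1 and the saposin precursor Psap differed by -0.057 and -0.077. Ppt1, which removes palmitate from proteins, differed by -0.0033, but its replicate 6 lay 0.595 below the mean of replicates 4 and 5 (gap -0.595), and without it the difference was 0.20. Lgmn, the asparaginyl endopeptidase that activates cathepsins, differed by 0.027. The 95% confidence intervals of these 5 ran from -0.45 at the lowest to 0.41 at the highest, so differences up to those bounds were not excluded for at least 1 of them.

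**Figure D3:**
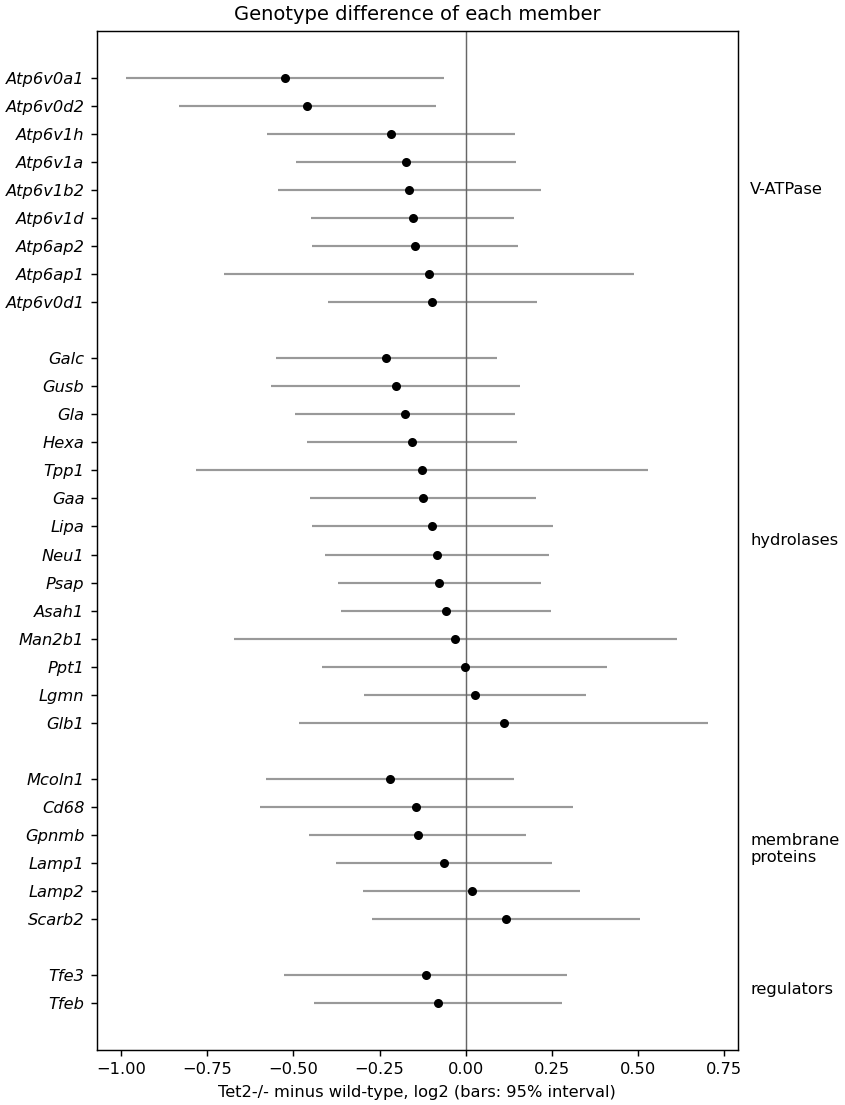
Tet2-/- minus wild-type difference in log2 level for each of the 31 genes, with its 95% confidence interval from limma (n = 3 per group). Only the intervals of Atp6v0a1 and Atp6v0d2 leave out 0, and no gene passed adjustment (adjusted p = 0.998 for each).

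Membrane proteins and regulators had small mean differences as well. Of the 6 membrane proteins, 4 had a lower and 2 a higher mean in Tet2-/- (66.7% lower beside 50.0% of all probe sets, mean -0.072, median -0.10). Without Tet2-/- replicate 6, 2 of the 6 were lower (33.3% beside 55.2% of all probe sets), with a mean of 0.027. Lamp1 and Lamp2, the most abundant lysosomal membrane glycoproteins in most cells, were at 10.63 ± 0.0874 against 10.57 ± 0.161 and at 10.32 ± 0.0721 against 10.34 ± 0.171 (SD, n = 3 each; wild-type first), differences of -0.063 and 0.017. Scarb2, the receptor that carries glucocerebrosidase to lysosomes, had the highest difference of all 31, 0.12, and it was -0.0067 without wild-type replicate 6.

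Cd68, the macrophage form of a LAMP protein, stood at 11.11, 10.90 and 11.01 in wild-type and at 11.23, 10.93 and 10.43 in Tet2-/- replicates 4, 5 and 6. Replicate 6 was again the lowest and replicate 4 the highest array, and the difference of -0.14 became 0.073 without replicate 6. Gpnmb, a glycoprotein of lipid-laden macrophages, was at 11.65, 11.56 and 11.62 in wild-type and at 11.62, 11.27 and 11.52 in Tet2-/-, with replicate 5 the lowest, as for Atp6v0d2. Mcoln1, the calcium release channel TRPML1, was at 7.15, 6.82 and 6.80 in wild-type and at 6.90, 6.69 and 6.52 in Tet2-/-, a difference of -0.22 (95% confidence interval -0.58 to 0.14) that was -0.13 without replicate 6.

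The regulators TFEB and TFE3 sense nutrient supply at the lysosome and drive its genes from the nucleus. Tfeb was at 5.14, 5.27 and 5.27 in wild-type and at 5.44, 5.06 and 4.94 in Tet2-/- replicates 4, 5 and 6, and Tfe3 at 7.16, 6.72 and 7.10 and at 6.95, 7.09 and 6.59. Both groups overlapped, and the differences of -0.080 and -0.12 became 0.023 and 0.027 without replicate 6. These are transcript levels, and the arrays do not measure where the proteins lie in the cell.

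Tfec, another MiT family gene and one restricted largely to macrophages, had a larger difference, though it is not among the 31. It was at 5.54, 5.93 and 5.91 in wild-type and at 5.26, 5.10 and 5.51 in Tet2-/- replicates 4, 5 and 6, without overlap. The log2 difference was -0.50 (SE 0.166, adjusted p = 0.998 by limma), and -0.61 without replicate 6. Of the 22 further regulators and sorting proteins measured, 18 had a lower mean (81.8% beside 50.0% of all probe sets), 2 of them at an unadjusted p under 0.05 (9.09% beside 1.90%). Without replicate 6 these were 16 (72.7% beside 55.2%) and 4 (beside 4.91% of all probe sets). Gnptg, a subunit of the enzyme that tags hydrolases with mannose 6-phosphate, differed by -0.39, the mannose 6-phosphate receptor gene Igf2r by -0.32 (-0.20 without replicate 6), and the folliculin partner Fnip2 by -0.20.

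The members' promoters were searched for the letters of an E-box element, and whether any factor binds there was not measured. RefSeq windows of 300 bases (250 before and 50 after a gene's start, GRCm38.p6) were held for 27 of the 31 genes, in 32 windows. The letters CACGTG, which read the same on both strands, occurred in 8 of the 32 windows (25%), 1 for each of 8 genes, beside 7.15% of all 32851 windows. The longer TCACGTG, searched on both strands and overlapping the first by design, occurred in the same 8 windows, beside 3.77% of all. Windows were not matched for base composition. The stretches below show the 3 genes with more than 1 copy and both V-ATPase genes with a copy. They are written 5′ to 3′ on the gene's strand with CACGTG in capitals, and positions are counted from the gene's start.
Lamp1, chr8:13159094-13159157, plus strand, -67 to -4 from the start: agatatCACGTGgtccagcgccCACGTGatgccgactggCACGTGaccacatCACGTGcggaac
Mcoln1, chr8:3500442-3500485, plus strand, -77 to -34 from the start: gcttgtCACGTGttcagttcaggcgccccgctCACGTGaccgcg
Gla, chrX:134601188-134601238, minus strand, -233 to -183 from the start: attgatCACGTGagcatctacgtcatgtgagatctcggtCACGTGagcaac
Atp6v1a, chr16:44139373-44139402, minus strand, -143 to -114 from the start: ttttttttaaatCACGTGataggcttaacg
Atp6v0d1, chr8:105566050-105566079, minus strand, -15 to 15 from the start: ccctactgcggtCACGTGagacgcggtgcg

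Lamp1 carries 4 copies and Mcoln1 and Gla 2 each; the other 3 genes with a copy were Gaa, Glb1 and Lgmn. The 8 genes with the motif had a median difference of -0.11 (range -0.22 to 0.11, 6 of 8 lower) and the 19 with a window without it -0.12 (range -0.52 to 0.12, 17 of 19 lower). Members with and without the letters in these windows thus had similar medians, and no test was made. Lamp1, with the most copies, differed by -0.063.

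Further hydrolases and membrane proteins had mostly lower means only while Tet2-/- replicate 6 was included. Of 27 measured hydrolases and cofactors beyond the 14, 18 had a lower and 9 a higher mean (66.7% lower beside 50.0% of all probe sets, median -0.13), with 1 at an unadjusted p under 0.05 (3.70% beside 1.90%). Without replicate 6, 12 of the 27 were lower (44.4% beside 55.2% of all probe sets) and the mean difference was 0.056. At that p, 2 were lower and 4 higher, beside 4.91% and 4.96% of all probe sets. Among the 4 were the sulfatases Arsb (0.67) and Sgsh (0.50). Of 28 further membrane proteins 22 were lower and 5 higher (78.6% lower, median -0.093), with 2 at that p (7.14%). Without replicate 6, 12 of the 28 were lower (42.9% beside 55.2%) and the mean difference was 0.0019. Acp5, the tartrate-resistant acid phosphatase, had the lowest difference of all the lysosome genes measured. It was at 7.11, 7.29 and 7.46 in wild-type and at 6.97, 6.10 and 6.07 in Tet2-/- replicates 4, 5 and 6, a log2 difference of -0.91 (SE 0.240, 0.533-fold, 95% confidence interval -1.45 to -0.36). Its unadjusted limma p was 0.00450 and its adjusted p 0.998. Acp5 also stands on the osteoclast marker list given at the end. The groups did not overlap, and without replicate 6 the difference was -0.75. The smallest p-values of that list after Acp5 belonged to Dnase2a, which digests engulfed DNA, at -0.25, to the sulfatase Galns at -0.39 and to the carboxypeptidase Scpep1 at -0.30. Without replicate 6 these stood at -0.27, -0.15 and -0.16.

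Among membrane proteins, the channel gene Mcoln3, a relative of Mcoln1, was at 6.31, 6.37 and 5.71 in wild-type and at 5.79, 4.56 and 5.51 in Tet2-/-. Wild-type replicate 6 lay below Tet2-/- replicate 4, and the difference of -0.84 was -0.48 without Tet2-/- replicate 5. Slc29a3, a nucleoside transporter, differed by -0.45, the calcium channel gene Tpcn2 by -0.25 and the transporter Abcd4 by -0.26. Without replicate 6 they stood at -0.28, -0.15 and -0.28. Over the 95 measured genes of the 4 further lists, 72 had a lower mean (75.8% beside 50.0% of all probe sets), 8 had an unadjusted p under 0.05, all lower (8.42% beside 1.90%), and 11 did not overlap, all lower (11.6% beside 4.07%). Without replicate 6, 55 of the 95 were lower (57.9% beside 55.2% of all probe sets and 46.6% of their brighter part). At that p, 16 were lower and 4 higher, beside 4.91% and 4.96% of all probe sets.

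**Figure D4:**
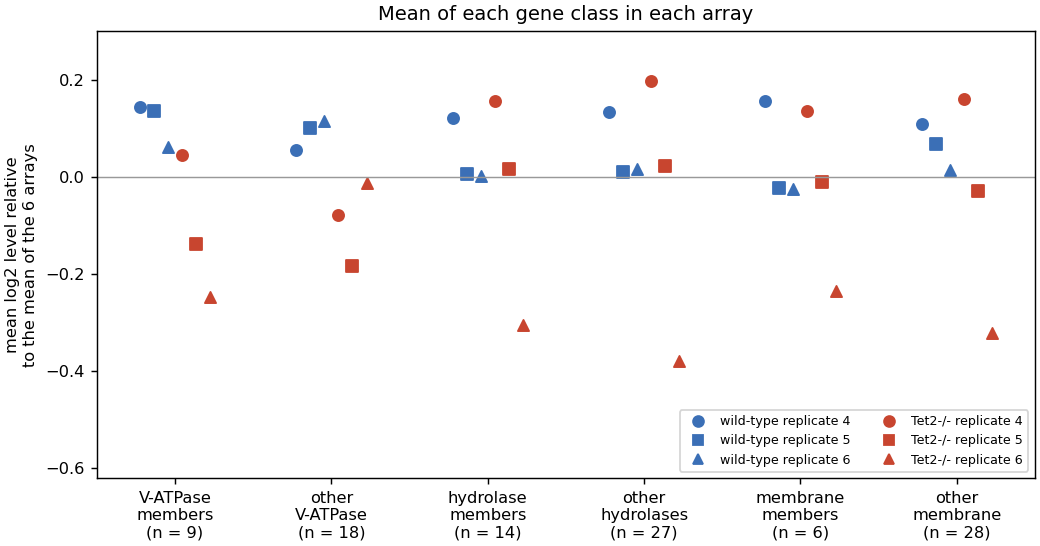
Mean log2 level of each gene class in each array, relative to each gene's mean over the 6 arrays; n is the number of genes averaged. For the hydrolases and membrane proteins, replicate 6 is the only Tet2-/- array well below wild-type, whereas for the 18 other V-ATPase genes replicates 4 and 5 are the lowest. For the 9 V-ATPase members replicate 6 is the lowest array (-0.25), with replicate 5 next (-0.14).

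Setting the pump against the other members removes what the classes share in an array. The V-ATPase mean minus the mean of the other 22 members, relative to the 6-array mean, was 0.016, 0.14 and 0.055 in wild-type and -0.10, -0.15 and 0.036 in Tet2-/- replicates 4, 5 and 6. Group means were 0.071 ± 0.0653 and -0.071 ± 0.0954 (SD, n = 3 each), and the groups overlapped because replicate 6 lay above wild-type replicate 4. The contrast of -0.14 between genotypes was -0.20 without replicate 6 and between -0.17 and -0.10 when any other array was left out. No p is given for it, since the genes were chosen with results of these data known.

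**Figure D5:**
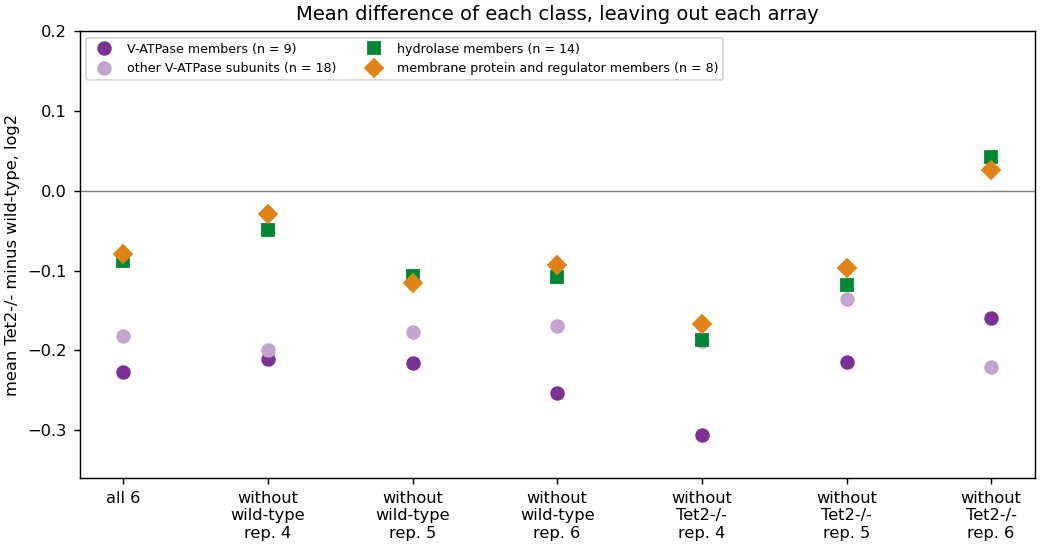
Mean Tet2-/- minus wild-type log2 difference of 4 gene classes with all 6 arrays and with each array left out in turn. Both V-ATPase classes stay between -0.31 and -0.14, while hydrolases (0.043) and membrane proteins with regulators (0.026) are above 0 without Tet2-/- replicate 6.

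Tet2-/- replicate 6 was the lowest of the 6 arrays for 22 of the 31 members, or 71.0%, beside 20.5% of all probe sets and 32.9% of the brighter part of them. It lay below the mean of the other Tet2-/- arrays for 26 of the 31, with a median gap of -0.275. Without it, 17 of 31 members (54.8%) had a lower mean in Tet2-/-, beside 55.2% of all probe sets and 46.6% of the brighter ones. The median difference of the 31 was then -0.025, beside -0.027 for all probe sets and 0.022 for the brighter ones. Macrophage markers were mixed: 5 of the 8 measured were lowest in this array and 3 in a wild-type array. The 8, of 9 listed, had a summed linear level of 3315 in this array. The sums were 5528 and 5669 in Tet2-/- replicates 4 and 5 and between 4147 and 5181 in wild-type. Cd68, itself a member, is on that list, and the other 7 summed to 1935 in this array, to 3126 and 3718 in replicates 4 and 5 and to between 2236 and 2970 in wild-type. Itgam, with the largest gap of the list (-1.205), was at 8.95 there against 9.38 to 10.29 in the other arrays. Aif1 went the other way, at 6.06 there against 5.08 to 5.88 in the other arrays. The part of these markers in the members' levels was not tested.

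Replicate 5, the lowest Tet2-/- array for Atp6v0d2, Galc and Gpnmb, had the lowest or highest sum for some other marker lists. The 8 genes of osteoclasts and fused macrophages, Acp5 among them, summed to 452 there, against 765 and 939 in Tet2-/- replicates 4 and 6 and between 772 and 1000 in wild-type; Ctsk, which makes up most of that sum, was at 8.13 in this array against 9.05 to 9.62 in the others. Without Acp5 the sum was 383 in replicate 5, 640 and 871 in replicates 4 and 6 and between 634 and 843 in wild-type. Of the list, Calcr and Oscar lay near the bottom of the scale in all arrays, from 1.56 to 1.87 and from 1.29 to 1.68, and 6 genes lay above the array median. Dcstamp, needed for cell fusion, was at 3.66, 3.90 and 3.71 in wild-type and at 3.13, 3.13 and 3.53 in Tet2-/- replicates 4, 5 and 6. Like Dcstamp, Mmp9 (difference -0.30) did not overlap between groups, while Nfatc1, at 5.17 to 5.99, and Ocstamp, at 3.49 to 4.17, did. Nfatc1 was highest in replicate 5. Of the 8 genes, 2 were lowest in replicate 5, with 1 further gene tied. The 11 measured of 12 B-cell markers summed to 398 in replicate 5, to 213 and 116 in replicates 4 and 6 and to between 141 and 182 in wild-type. This sum joins markers of opposite direction: 10 had a higher mean in Tet2-/-, and Cd22 a lower one. Cd22, a large part of the wild-type sums, was at 6.07 to 6.21 in wild-type and 5.23 to 5.50 in Tet2-/-. The 12 resident macrophage markers summed to 4942 in replicate 5 and 3498 in replicate 4, but to 1815 in replicate 6, within the wild-type range of 1707 to 2934. Fn1 makes up most of that sum, at 10.97, 11.57 and 10.15 in Tet2-/- replicates 4, 5 and 6 and 10.06 to 10.97 in wild-type. Of these 12, 10 had a higher mean in Tet2-/- and 2 a lower one. For the 7 measured of 8 monocyte and small macrophage markers the sums were 274 to 645 in Tet2-/- and 172 to 226 in wild-type, without overlap. Ccr2, the brightest of them, was at 7.36 to 8.47 in Tet2-/- and 6.51 to 6.77 in wild-type. Of the 7, 6 had a higher mean in Tet2-/- and Irf4 a lower one. Only Ccr2 and Plac8 did not overlap between groups, and 2 of the 7 lay below the array median. Whether these cells contributed to the members' values was not tested.

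The sums of 4 further marker lists overlapped between genotypes, and those of neutrophil and eosinophil genes did not. Sums for T and NK cells (9 of 10 measured) were 43.6 to 48.7 in wild-type and 44.7 to 52.9 in Tet2-/-, for mast cells (7 of 7) 32.3 to 35.2 and 32.5 to 35.6, and for dendritic cells (7 of 7) 33.8 to 39.2 and 37.5 to 41.9. Defining genes of these cells, such as Cd3e at 1.62 to 2.16, were near the bottom of the scale. Neutrophil genes (10 of 10) summed to 243 to 281 and 289 to 309, without overlap. Most of that sum came from S100a8, Csf3r and Mmp8, each of which overlapped between genotypes, and the other 7 lay below the array median. Eosinophil genes (5 of 6) summed to 46.2 to 60.7 and 25.4 to 39.3, also without overlap. Siglecf, the brightest of them, was at 5.02 to 5.58 in wild-type and 3.58 to 4.65 in Tet2-/-, and the other 4 lay below the array median. Ly6g, at most 2.87, and Epx, at most 2.06, were dim. Mesothelial and fibroblast genes (10 of 10) summed to 386 to 682 and 435 to 582.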

How the data were processed

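Expression was measured on Affymetrix arrays in 6 samples, 3 per genotype by sample title. The deposited values are log2 expression summaries; the submitters' processing notes name RMA and affy 1.36.1; the log2 scale was read from the value range, 0.19 to 12.21, and whether the arrays were normalized together is not given in the sources used here. RMA compresses differences of dim genes. Scanner files were not used here, so background per probe set was not checked, and the number of arrays limits precision.

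Probe sets were named through the platform annotation (23185 of 25206) and checked against RefSeq genes of GRCm38.p6; listed genes were matched by current symbol, then by an unambiguous older one. Of 104 further lysosome genes 95 were matched; the others are not analysed here. The genotypes were compared by limma 3.58.1 under R 4.3.3 (lmFit, eBayes, two-sided, Benjamini-Hochberg over all probe sets). The test was checked on simulated arrays with independent noise and no outlying array. Its power at differences as small as those of the members is not reported here. The "brighter part" is the probe sets above the median mean level. Marker sums add 2 to the power of each log2 value. Members and lists were chosen with earlier results of these data known. All 31 members are named, with the 4 genes of smallest unadjusted p in each further list; genes named from the marker lists, and those singled out without replicate 6, were chosen after their values were seen, as were the marker sums without Cd68 and Acp5. Same-numbered arrays did not deviate together (correlations 0.15, -0.22 and 0.11), so numbers were not treated as pairs.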

Additional observations from a re-analysis of the deposited data

How the results depend on the processing

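No setting tried brought any of the 31 genes past the threshold. Over all 25206 probe sets the number past it was 2 with array weights and from 0 to 19 when single arrays were left out (19 when it was Tet2-/- replicate 6 and 1 when it was wild-type replicate 4), and 0 otherwise. With the replicate block the V-ATPase mean difference was -0.23 and 0 members passed. The balanced design leaves differences as they are, and the sample titles do not say that equal numbers are pairs. Grouping by the genotype characteristic put the V-ATPase mean at 0.039 and its contrast with the other members at 0.034. The sign also changed there for 29 genes: Atp6v0d2 (0.020), Atp6v0a1 (0.19), Atp6v1b2 (0.037), Atp6v1h (0.030), Atp6v1d (0.027), Atp6ap1 (0.073), Hexa (0.050), Gla (0.043), Man2b1 (0.13), Asah1 (0.083), Lipa (0.023), Ppt1 (0.14), Lgmn (-0.027), Cd68 (0.023), Scarb2 (-0.10), Tfeb (0.027), Tfe3 (0.070), Tcirg1 (0.13), Atp6v1e1 (0.097), Atp6v1e2 (0.11), Atp6v1g3 (-0.097), Galns (0.11), Acp5 (0.23), Scpep1 (0.063), Tpcn2 (0.10), Slc29a3 (0.057), Tfec (0.21), Gnptg (0.20) and Igf2r (0.097). For 17 genes the sign was kept and Atp6ap2 stood at 0. The hydrolase mean was 0.018 under this grouping and 0.022 with array weights, and the mean of membrane proteins and regulators was -0.017 and 0.012. The 27 of 31 members with a lower mean became 13 under this grouping and 19 with array weights. Array weights turned Atp6ap1 (0.16), Man2b1 (0.22), Asah1 (0.0088), Tpp1 (0.16), Ppt1 (0.14), Lamp1 (0.017), Cd68 (0.036) and Tfeb (0.015) positive. A further quantile normalization did so for Man2b1 (0.021) and Ppt1 (0.048), and median centring, which shifts all genes by -0.025, put Lamp2 at -0.0083. Leaving out single arrays changed the sign of 14 members, whose differences ran from -0.36 to 0.22 (Atp6ap1), -0.065 to 0.43 (Glb1), -0.26 to 0.32 (Man2b1), -0.12 to 0.033 (Asah1), -0.16 to 0.028 (Lipa), -0.41 to 0.22 (Tpp1), -0.14 to 0.20 (Ppt1), -0.040 to 0.13 (Lgmn), -0.13 to 0.027 (Lamp1), -0.040 to 0.12 (Lamp2), -0.33 to 0.073 (Cd68), -0.0067 to 0.24 (Scarb2), -0.23 to 0.023 (Tfeb) and -0.25 to 0.027 (Tfe3). The cause of these changes was not tested. The intensity trend with robust variances and the brighter probe sets changed no sign; Atp6v1g3 was not among the brighter ones.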
